A study of Mus musculus with 24 samples.

Results

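Txnip, its arrestin-domain relatives Arrdc1, Arrdc2, Arrdc3 and Arrdc4, the carbohydrate-response factors Mlxip (MondoA), Mlxipl (ChREBP) and Mlx, and the thioredoxins Txn1 and Txn2 were followed through 8 groups of a mouse hypothalamic neuronal cell line. These 10 genes are 10 of the 56941 gene IDs in the files, and 9 of them are among the 13281 genes with enough counts to be tested; Mlxipl is the tenth. They were selected on measured values, namely the lower counts of Txnip, but not of Arrdc4, in high glucose. Every difference between the media is therefore given for them as a description. No p-value is printed for it, and the calls that a fit across all genes makes for them are listed once, beside the share of all genes, with nothing read from them. Differences between treated and control cells were not themselves used in the choice and were tested, but they share the control libraries with it.

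The cells are labelled as adult mouse hypothalamic neuronal cells, and the labels do not name the line. They were grown in high or normal glucose, without or with mogroside V, a sweet triterpene glycoside of monk fruit. The high-glucose groups are the control HGC and the treated HG1, HG2 and HG3, and the normal-glucose groups are the control NGC and the treated NG1, NG2 and NG3, as read from the sample titles. Concentrations of 15, 60 and 160 µM are named for the series without a statement of which belongs to 1, 2 or 3, so these numbers are called dose labels here. The glucose concentrations, the length of exposure, the genotype of the line and the number of clones behind it are not given in the sources used here. The labels do not state whether the replicates are separate cultures, and p-values therefore reflect a spread between libraries that may be technical only. Batches are not labelled, so an effect of a batch that coincided with the medium and an effect of the medium cannot be told apart.

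TXNIP is an alpha-arrestin that binds reduced thioredoxin and inhibits it, and that restrains glucose uptake by promoting the removal of glucose transporters from the cell surface. Its gene is a classical target of MondoA and ChREBP, which pair with MLX on carbohydrate response elements in promoters when sugar phosphates build up, and Arrdc4 is a further target of the same pairs. The other alpha-arrestins are adaptors that bring ubiquitin ligases of the NEDD4 family to membrane proteins. In the mouse hypothalamus, TXNIP has been described as a nutrient sensor that affects energy balance.

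Of the 24 libraries, HG2 replicate 3 and HG3 replicate 2 held the same values on every line, and both were left out, which leaves n = 2 in HG2 and in HG3. The other 22 had 3396249 to 7773074 counts on genes (median 3864825), with the largest in NG2 replicate 1. Between 16535 and 18935 genes were detected in a library. Of 14 neuron markers, 7 averaged at least 1 CPM (the CPM of edgeR, on library sizes scaled by the trimmed mean of M-values, TMM), with Elavl4 at 0 and Rbfox3, Snap25, Syp, Syt1, Dcx and Elavl3 below 1 CPM. The list summed to 147.1 to 167.7 CPM in high and 142.4 to 191.3 CPM in normal glucose. Of 16 markers of hypothalamic neuropeptides and their receptors, 2 reached 1 CPM (Npy1r and Gnrh1) and 6 were at 0. Of 9 fibroblast and pericyte markers, 8 reached 1 CPM, and their summed level was 7263 to 8160 CPM in high-glucose and 5495 to 7775 CPM in normal-glucose libraries. Of the neuron markers 7 were thus at or near 0 and 7 were expressed, and 14 of the 16 hypothalamic markers were below 1 CPM. Of 10 astrocyte and tanycyte markers, 5 averaged at least 1 CPM, with Aqp4 at 0 and Gfap, Aldh1l1, S100b and Rax below 1 CPM. This list summed to 2821 to 3926 CPM in high and 3090 to 4184 CPM in normal glucose. Of 7 microglia markers, 3 averaged at least 1 CPM, and the list summed to 163.8 to 205.9 and 130.9 to 202.9 CPM. Those sums were 37.2 to 50.4 and 37.6 to 56.3 CPM for 8 oligodendrocyte markers. For 6 endothelial markers they were 43.4 to 63.4 and 38.2 to 59.6 CPM.

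The promoters of the gene that chose the set and of its comparator are shown first. Both genes are known targets of the same factors, while the set was picked for lower counts of Txnip, but not of Arrdc4, in high glucose. The sequences are from RefSeq (GRCm38.p6) and run from 250 bases before to 50 bases after the gene start, 5′ to 3′ on the gene's strand. Txnip lies at chr3:96557707-96558006 on the plus strand and Arrdc4 at chr7:68749189-68749488 on the minus strand. Capitals mark matches on either strand to the E box CACGTG, to its variant with the letters CACGAG and to the CCAAT box, and in Txnip also the 5 bases between its 2 variants.
Txnip: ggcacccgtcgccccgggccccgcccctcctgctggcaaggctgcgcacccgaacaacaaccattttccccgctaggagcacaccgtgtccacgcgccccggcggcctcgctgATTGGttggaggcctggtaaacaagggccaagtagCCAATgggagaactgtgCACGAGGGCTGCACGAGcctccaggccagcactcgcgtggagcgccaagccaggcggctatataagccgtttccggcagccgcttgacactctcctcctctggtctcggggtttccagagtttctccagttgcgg
Arrdc4: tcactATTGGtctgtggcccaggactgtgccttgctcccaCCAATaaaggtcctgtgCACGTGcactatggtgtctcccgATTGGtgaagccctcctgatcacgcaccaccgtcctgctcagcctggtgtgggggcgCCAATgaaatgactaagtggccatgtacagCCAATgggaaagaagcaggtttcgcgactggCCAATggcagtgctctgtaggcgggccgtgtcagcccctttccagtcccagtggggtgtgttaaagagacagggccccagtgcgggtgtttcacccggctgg

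The Txnip promoter holds CACGAG at positions -85 and -74 from the gene start, spaced as a tandem pair. The spelling CACGNG, then 5 bases of any kind, then CACGNG, which covers this pair, was searched on both strands and occurs in 16 of 32851 mouse promoters of the same length (0.0487%), and among the 10 genes only in Txnip. The tandem E box spelled CANGNG, 5 bases of any kind, then CNCNTG occurs in 0.557% of promoters and in none of the 10 genes. CACGAG alone occurs in 6.48% of promoters, and it was also found at 2 places in Arrdc1 and at 1 each in Arrdc2 and Mlxipl. The Arrdc4 window holds 1 CACGTG at -193 and 6 matches to CCAAT, against 2 CCAAT matches in Txnip at -137 and -102. CACGTG occurs in 7.15% and CCAAT in 37.4% of promoters. CACGTG was also present in Mlx and Mlxipl. TGTTTAC, a core motif of FOXO factors present in 3.65% of promoters, was found in Txnip at -121 on the minus strand and in no other of the 10 genes. All 10 genes matched an entry, and these matches describe the letters in these windows only.

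Txnip was the gene on which the set was chosen, and it was lower in high glucose at all 4 dose levels. It had 84.7, 72.1 and 69.5 CPM in HGC, against 88.5, 119.1 and 167.7 CPM in NGC. It had 117.0, 112.3 and 103.5 CPM in HG1, against 133.8, 165.0 and 120.3 CPM in NG1. The HGC libraries lie below all 3 NGC libraries and the HG1 libraries below all 3 NG1 libraries, both pairs by a narrow gap. It had 96.1 and 91.1 CPM in HG2, against 197.8, 119.7 and 115.5 CPM in NG2. It had 86.4 and 108.4 CPM in HG3, against 129.2, 173.4 and 182.6 CPM in NG3. At labels 2 and 3 the media again do not overlap. The HGC and NGC libraries did not overlap for 17.8% of all genes. This share was not computed for labels 1, 2 and 3, so nothing is read from the separations there. Over all dose levels the ranges overlap, with NGC replicate 1 the lowest of its medium, and all 10 high-glucose libraries lie below the normal-glucose median of 131.5 CPM. In a bulk sample, fewer cells that express a gene and less RNA per cell cannot be told apart.

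The log2 difference of Txnip, high over normal glucose, was -0.73 ± 0.22 (SE) without mogroside V, -0.33 ± 0.22 at dose label 1, -0.64 ± 0.25 at label 2 and -0.73 ± 0.25 at label 3. Over the 4 levels it was -0.61 ± 0.12, a fold of 0.657 (95% interval 0.553 to 0.779). The mean ± SD was 94.1 ± 16.3 CPM in high glucose (n = 10) and 142.7 ± 33.3 CPM in normal glucose (n = 12). Single libraries weigh on the values at a single level. Without NGC replicate 3 the difference between the controls was -0.46. Without NG1 replicate 2 the difference at label 1 was -0.19, and without NG2 replicate 1 the difference at label 2 was -0.33. The mean over the 4 levels stayed between -0.66 and -0.52 when any 1 library was left out. The antisense gene Gm15441 overlaps 606 bases of Txnip exons on the other strand. It averaged 0.693 ± 0.747 CPM in high and 0.342 ± 0.394 CPM in normal glucose, far below Txnip. Whether strand was used in counting is not stated. It therefore cannot be told whether reads in the overlap were counted for Txnip or set apart as ambiguous between the 2 genes.

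**Figure D1:**
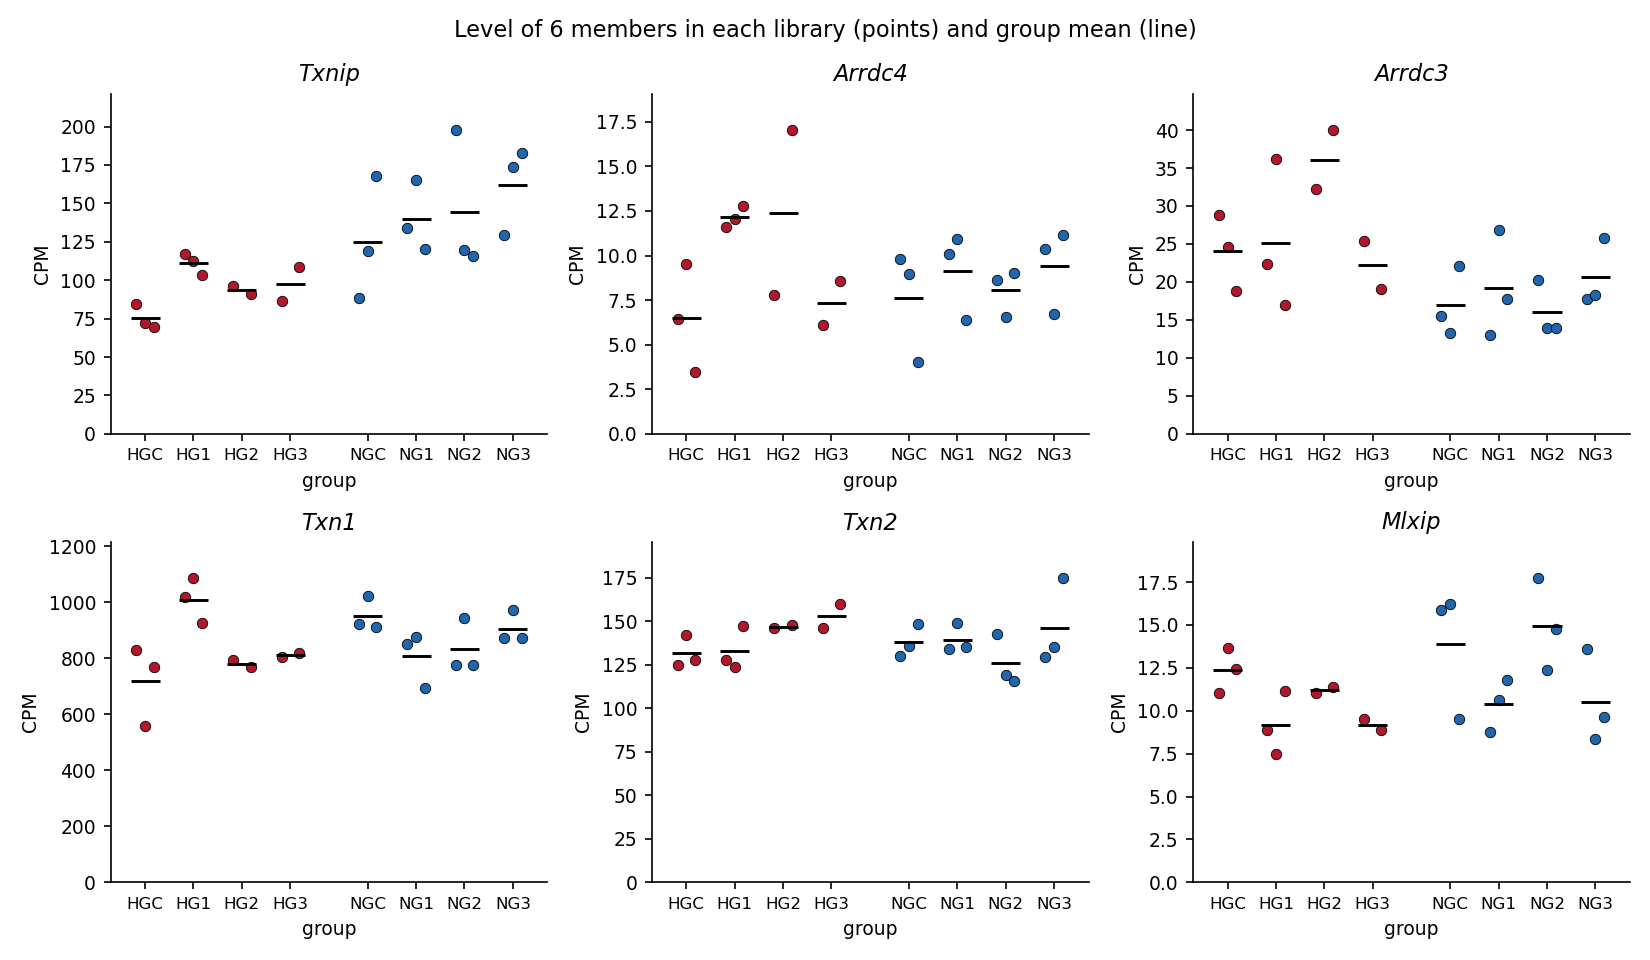
Level in CPM (y axis, starting at 0) of Txnip, Arrdc4, Arrdc3, Txn1, Txn2 and Mlxip in each of the 22 libraries, by group (x axis); points are libraries, lines are group means, red is high and blue is normal glucose. Txnip points of high glucose lie at 69.5 to 117.0 CPM and those of normal glucose at 88.5 to 197.8 CPM. Arrdc4 points lie at 3.475 to 17.04 CPM in high and at 4.044 to 11.15 CPM in normal glucose. Of the 10 high-glucose points of Arrdc4, 4 lie above and 1 below all those of normal glucose.

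Arrdc4, which encodes a close relative of TXNIP, overlapped between the media. It had 6.45, 9.50 and 3.47 CPM in HGC, against 9.81, 8.96 and 4.04 CPM in NGC. It had 11.62, 12.06 and 12.80 CPM in HG1, against 10.07, 10.91 and 6.38 CPM in NG1. The controls overlap, and the HG1 libraries lie above all 3 NG1 libraries, a state whose share over all genes was not computed. It had 7.76 and 17.04 CPM in HG2, against 8.61, 6.58 and 9.03 CPM in NG2, and 6.08 and 8.59 CPM in HG3, against 10.36, 6.72 and 11.15 CPM in NG3. HG2 replicate 2 was thus the highest library of all. The log2 difference over the 4 levels was 0.12 ± 0.19 (95% interval -0.26 to 0.49), with values of -0.22 ± 0.36, 0.42 ± 0.34, 0.62 ± 0.38 and -0.36 ± 0.40 at the 4 levels from control to label 3. It was -0.05 over the 4 levels and -0.07 at label 2 without HG2 replicate 2. Between the controls it was -0.61 without HGC replicate 2, while leaving out NGC replicate 3 gave -0.52 and leaving out HGC replicate 3 gave 0.065. The pair was chosen for this contrast between Txnip and Arrdc4, and the difference between the 2 genes was not tested.

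Arrdc3, an alpha-arrestin known for the sorting of beta-adrenergic receptors and for effects on energy expenditure in mice, was higher in high glucose. It had 28.8, 24.6 and 18.8 CPM in HGC, against 15.5, 13.3 and 22.1 CPM in NGC. It had 22.4, 36.2 and 17.0 CPM in HG1, against 12.98, 26.9 and 17.7 CPM in NG1. Both pairs overlap. It had 32.2 and 40.0 CPM in HG2, against 20.2, 13.9 and 14.0 CPM in NG2. This pair does not overlap, a state whose share over all genes was not computed, so nothing is read from it. It had 25.4 and 19.1 CPM in HG3, against 17.8, 18.3 and 25.8 CPM in NG3. The log2 difference was 0.51 ± 0.27, 0.40 ± 0.27, 1.14 ± 0.28 and 0.11 ± 0.30 from control to label 3, and 0.54 ± 0.14 over the 4 levels (95% interval 0.26 to 0.82). Of the 10 high-glucose libraries 9 lie above the normal-glucose median of 17.7 CPM.

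Arrdc1, an alpha-arrestin that recruits the budding machinery of extracellular vesicles, ranged from 4.63 to 11.34 CPM in high glucose and from 6.05 to 12.22 CPM in normal glucose. Its log2 difference over the 4 levels was -0.25 ± 0.17, with an interval of -0.59 to 0.09. Arrdc2 was near the limit of detection, with 2 to 10 counts per library in high and 4 to 13 in normal glucose, and its difference was -0.10 ± 0.36 (interval -0.83 to 0.63). Arrdc5, a further relative that was not in the set, had 5 counts over the 10 high-glucose and 1 count over the 12 normal-glucose libraries.

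Among the carbohydrate-response factors, Mlxip and Mlx were expressed and Mlxipl was at or under the limit of detection. Mlxipl had 3 counts in 1 of 10 high-glucose libraries and 1 count in 1 of 12 normal-glucose libraries. A count of 0 allows up to 3 counts, which is 0.374 to 0.895 CPM depending on the library, for counting error only. Mlxip had 11.02, 13.7 and 12.5 CPM in HGC, against 15.9, 16.2 and 9.52 CPM in NGC, and over all levels a median of 11.03 CPM (range 7.50 to 13.65) in high glucose and 12.1 CPM (range 8.35 to 17.71) in normal glucose. Its log2 difference over the 4 levels was -0.24 ± 0.14, and it was below 0 at each of the 4 levels. Mlx, the partner of both factors, had 14.5, 20.7 and 21.4 CPM in HGC, against 11.97, 22.3 and 16.2 CPM in NGC. All 10 high-glucose libraries of Mlx lie above the normal-glucose median of 13.6 CPM, and its log2 difference over the 4 levels was 0.33 ± 0.13 (interval 0.07 to 0.59). Exons of Psmc3ip overlap 385 bases of Mlx on the other strand, and Psmc3ip itself averaged 15.8 ± 4.82 CPM in high and 15.7 ± 4.17 CPM in normal glucose. The files set 3.46 to 4.15% of reads apart as ambiguous between genes, outside the gene counts. Reads in the overlap may be among them, so the Mlx counts could miss reads.

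Txn1, the cytosolic thioredoxin to which TXNIP binds, was the most abundant gene of the set. It had 828, 557 and 770 CPM in HGC, against 921, 1023 and 911 CPM in NGC. It had 1018, 1085 and 926 CPM in HG1, against 852, 876 and 695 CPM in NG1. The order of the media is thus opposite at these 2 levels, and neither pair overlaps. Between HGC and NGC this was so for 17.8% of all genes, and the share at label 1 was not computed. It had 794 and 768 CPM in HG2, against 776, 943 and 778 CPM in NG2, and 806 and 818 CPM in HG3, against 874, 971 and 871 CPM in NG3. The log2 difference was -0.41 ± 0.12 between the controls, 0.32 ± 0.12 at label 1, -0.09 ± 0.13 at label 2, -0.16 ± 0.13 at label 3 and -0.08 ± 0.06 over the 4 levels. Without HGC replicate 2, the library with 557 CPM, the difference between the controls was -0.25. Txn2, the mitochondrial thioredoxin, lay between 123.8 and 160.2 CPM in high and between 115.5 and 174.6 CPM in normal glucose, and its difference over the 4 levels was 0.04 ± 0.06 (interval -0.09 to 0.17). Txn1 has a processed copy, Txn-ps1, listed separately at 0.1099 ± 0.193 CPM in high and 0.0766 ± 0.114 CPM in normal glucose.

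**Figure D2:**
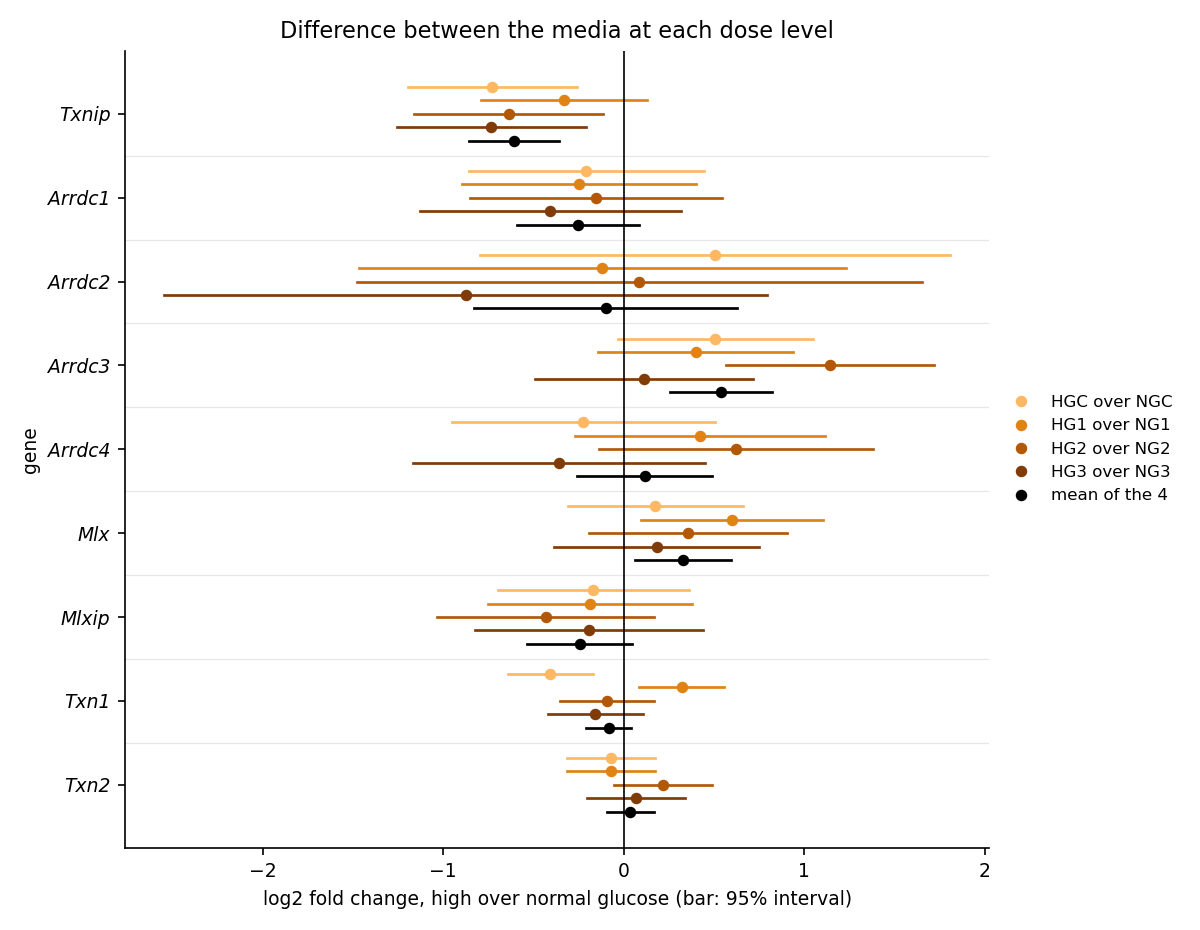
Log2 fold change of high over normal glucose (x axis) for the 9 tested genes (y axis), at each of the 4 dose levels (orange shades) and as their mean (black), with 95% intervals as bars. For Txnip all 5 estimates lie between -0.73 and -0.33, for Arrdc4 they lie on both sides of 0, and for Txn1 the control and label 1 estimates lie on opposite sides.

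The genes were selected on the contrast of the media, so the following counts are no test of them and nothing is read from them. By edgeR's quasi-likelihood test with Benjamini-Hochberg adjustment over all 13281 genes, 10.1% of all genes passed 0.05 over the 4 levels, among them 2 of the 9 (Txnip lower, Arrdc3 higher). Over the 3 treated levels the same 2 passed, where 8.1% of all genes did, but neither passed without HG2 replicate 2 or HG3 replicate 1. Arrdc3 alone also missed there without NG1 replicate 1, NG1 replicate 3, NG2 replicate 3 or HG1 replicate 2, and Txnip alone without HG2 replicate 1. Between HGC and NGC none passed, where 2.28% of all genes did. In that comparison 2 of the 9 had an unadjusted p under 0.05, as had 11.9% of all genes. DESeq2 called 2 of the 9 in it, Txnip and Txn1, and 377 of 11153 genes. Txnip passed there without NGC replicate 1 or NG2 replicate 1, and Txn1 without NG1 replicate 3, NG3 replicate 2, NG3 replicate 3 or HGC replicate 1. At label 2, Arrdc3 passed, where 0.76% of all genes did, but it did not pass without any 1 of NG1 replicate 3, NG2 replicates 2 and 3, HGC replicate 2, HG1 replicate 1 and HG2 replicates 1 and 2. None passed at labels 1 and 3, where 1.66% and 0.919% of all genes did. Unadjusted p was under 0.05 for 2 and for 1 of the 9 there, as for 12.9% and 12.2% of all genes, and DESeq2 called none of the 9. The same holds for overlap: the 3 HGC and 3 NGC libraries did not overlap for Txnip and Txn1, a state of 17.8% of all genes, and none of the 9 separated all 10 high-glucose from all 12 normal-glucose libraries, as 0.919% of all genes did. Over the 4 levels, the fibroblast and pericyte markers Postn, Col1a1 and Acta2 rose, 3 of 8 tested. The neuron marker Map2 fell, 1 of 7 tested, and the astrocyte and tanycyte marker Nes fell, 1 of 4 tested, all 4 of which were below 0 (median log2 -0.30). The neuropeptide receptor gene Npy1r rose, 1 of 2 tested, and the microglia marker Csf1r rose, 1 of 3 tested. The part of these markers in the differences was not tested.

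The treated cells were compared with the control of their own medium, a contrast that was not itself used to choose the genes. The controls HGC and NGC are part of the medium contrast that was used, so these comparisons are not independent of the choice. A level of Txnip that was low in HGC by chance would enter both. Txnip was higher with mogroside V in high glucose: the 7 treated libraries lie at 86.4 to 117.0 CPM (median 103.5), above all 3 HGC libraries at 69.5 to 84.7 CPM. In normal glucose the 9 treated libraries lie at 115.5 to 197.8 CPM (median 133.8), against 88.5 to 167.7 CPM in NGC, and these overlap. No overlap in either direction was seen for 1.72% of all genes between the treated and control libraries of high glucose, and Txnip was the only one of the 9 tested genes among them. In normal glucose the share was 1.42%, with none of the 9.

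The log2 change of Txnip against HGC was 0.56 ± 0.23 in HG1 (95% interval 0.08 to 1.03, edgeR adjusted p = 0.577, and 0.0359 without the low-count filter), 0.31 ± 0.25 in HG2 and 0.37 ± 0.25 in HG3. Over the 3 labels it was 0.41 ± 0.20 (interval 0.0022 to 0.82, adjusted p = 0.952). Against NGC it was 0.16 ± 0.22 in NG1, 0.22 ± 0.22 in NG2 and 0.37 ± 0.22 in NG3, and 0.25 ± 0.18 over the labels (edgeR adjusted p = 0.785). All 6 estimates are above 0, but the 3 of each medium share their control libraries, so they are not independent. In NG1 and NG2 the sign rests on single libraries: the change in NG1 was -0.04 without NGC replicate 1, that in NG2 was -0.08 without NG2 replicate 1, and that over the labels stayed above 0, at 0.05 without NGC replicate 1. Averaged over both media the change was 0.33 ± 0.13 (interval 0.05 to 0.61, edgeR adjusted p = 0.994), which does not pass after adjustment over all genes. The difference between the media in this change was 0.16 ± 0.26 (interval -0.39 to 0.71, edgeR adjusted p = 0.914).

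Arrdc4 was also higher in part of the treated high-glucose libraries. It lay at 11.62 to 12.80 CPM in HG1, above all 3 HGC libraries at 3.47 to 9.50 CPM. The share of all genes without overlap of HG1 and HGC was not computed. The log2 change of Arrdc4 in HG1 was 0.89 ± 0.35 (interval 0.17 to 1.60, edgeR adjusted p = 0.528). In HG2 the change was 0.93 ± 0.39 (edgeR adjusted p = 0.902), which rests on replicate 2, since it was 0.24 without that library. In HG3 it was 0.16 ± 0.41. In normal glucose the changes were 0.24 ± 0.35, 0.08 ± 0.35 and 0.29 ± 0.35 from label 1 to label 3. The mean over both media was 0.43 ± 0.21 (interval 0.0054 to 0.86, edgeR adjusted p = 0.994).

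Txn1 had the lowest p of the 9 genes in the treated comparisons. Its log2 change was 0.49 ± 0.12 in HG1 against HGC (interval 0.26 to 0.73, edgeR adjusted p = 0.230), with 925.8 to 1085 CPM in HG1 and 557 to 828 CPM in HGC. In NG1 against NGC it was -0.24 ± 0.12 (interval -0.47 to -0.0032, edgeR adjusted p = 0.987). The difference between these 2 changes was 0.73 ± 0.16 (interval 0.40 to 1.06, edgeR adjusted p = 0.131), and over the 3 labels 0.43 ± 0.14 (adjusted p = 0.275). DESeq2 called Txn1 in HG1 against HGC (adjusted p = 0.0285) and in the difference at label 1 (adjusted p = 0.0144). It adjusted over 3367 and 2848 genes there and called 12 and 29 of them. Without the low-count filter edgeR called both over 28284 genes, with 37 genes up and 13 down in HG1. In the difference it had 28 up and 7 down. These 2 results thus lie on either side of the threshold depending on the tool and on the genes adjusted over. Both contain HGC replicate 2, and without it they were 0.34 and 0.57.

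**Figure D3:**
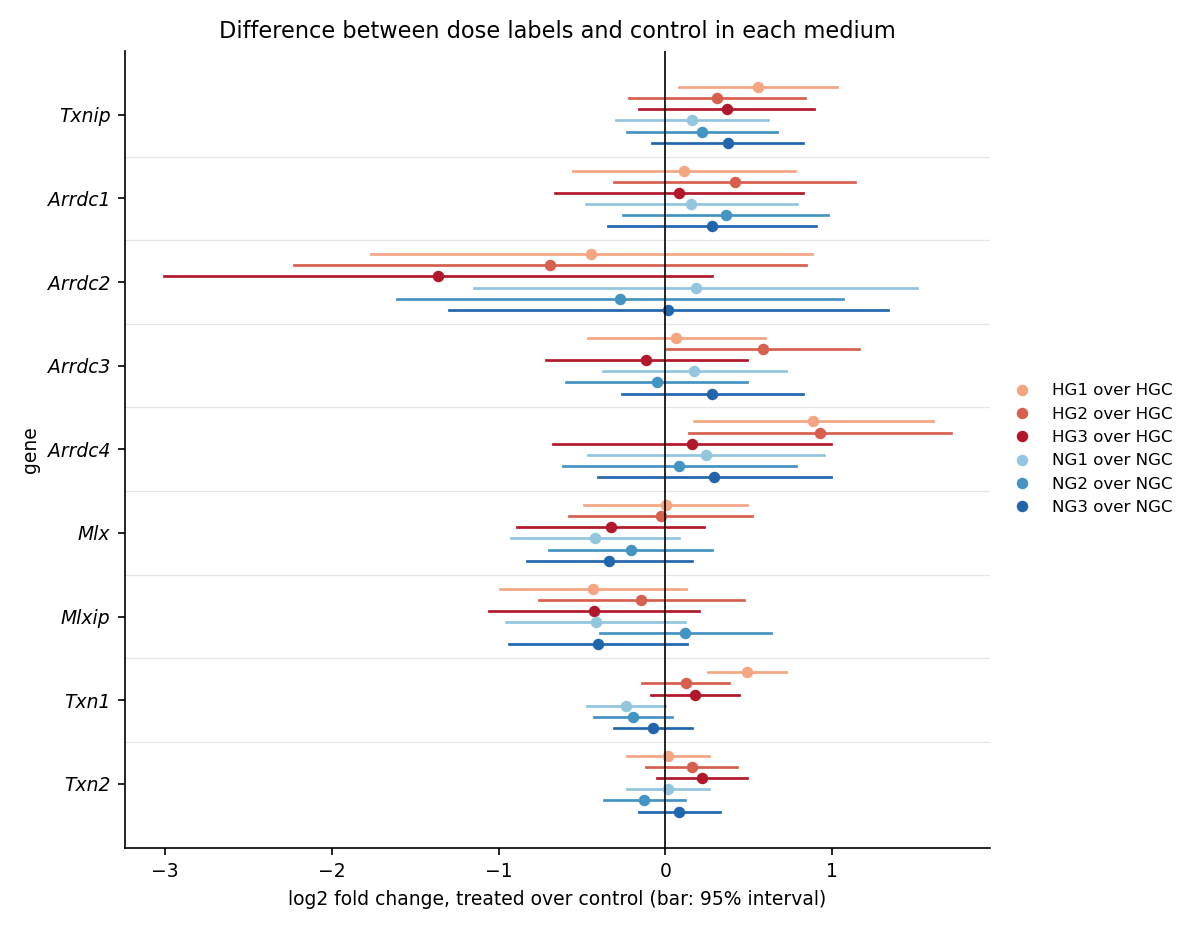
Log2 fold change of treated over control (x axis) for the 9 tested genes (y axis), for 3 dose labels in high glucose (red shades) and 3 in normal glucose (blue shades), with 95% intervals as bars. The 6 Txnip estimates lie between 0.16 and 0.56, and the Txn1 estimates lie above 0 in high and below 0 in normal glucose.

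Arrdc3 changed against HGC by 0.07 ± 0.26, 0.59 ± 0.28 and -0.11 ± 0.30 from label 1 to label 3, and against NGC by 0.17 ± 0.27, -0.05 ± 0.27 and 0.28 ± 0.27. Mlxip was at 7.50 to 11.36 CPM in the 7 treated high-glucose libraries, against 11.02 to 13.7 CPM in HGC, and 8 of 9 treated normal-glucose libraries lie below the NGC median of 15.9 CPM. Its mean log2 change over both media was -0.28 ± 0.16 (interval -0.60 to 0.03, edgeR adjusted p = 0.994). Mlx changed by -0.22 ± 0.14, Arrdc1 by 0.23 ± 0.19, Arrdc2 by -0.43 ± 0.39 and Txn2 by 0.06 ± 0.07 over both media. For each of these the interval includes 0, and for Txn2 it spans -0.08 to 0.20, the narrowest of the set together with that of Txn1 (-0.09 to 0.19).

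None of the 9 genes passed an edgeR adjusted p of 0.05 in any comparison of treated with control cells or between the media in that change. In high glucose 0.0% of all genes passed at label 1, 2 or 3 or over the labels. In normal glucose 0.0% passed at label 1 and over the labels, 0.00753% at label 2 and 0.128% at label 3. Over both media 0.0% passed, and the difference between the media had 0.00753% over the labels and 0.0% at each single label. Of the 9 genes, an unadjusted p under 0.05 was reached by 3 in HG1, 2 in HG2, none in HG3, 3 over the high-glucose labels, 1 in NG1, none in NG2, NG3 or over the normal-glucose labels, and 2 over both media. Of all genes, 7.78%, 5.35%, 4.51% and 5.11% reached it in HG1, in HG2, in HG3 and over the high-glucose labels, 4.88% in NG1 and 4.74% over both media. It was reached by 1 in the difference at label 1 and by 1 over the labels, where 7.39% and 8.48% of all genes did, and by none at labels 2 and 3. DESeq2 called 1 of the 9 in HG1 and 1 in the difference at label 1, which is Txn1 in both, and none elsewhere. Of all genes it called 12 of 3367 in HG1 and 29 of 2848 in the difference at label 1.

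Levels were compared between genes only per kilobase of exon, with lengths from GENCODE M21 on GRCm38, a different build from that of the counts. Txn1 was highest, at 796 ± 139 CPM per kb in high and 832 ± 86.8 CPM per kb in normal glucose. Txnip came next to Txn2, below it in high glucose at 30.1 ± 5.22 CPM per kb against 33.1 ± 2.96 for Txn2, and above it in normal glucose at 45.7 ± 10.7, with Txn2 at 32.7 ± 3.67. Txn2 exceeded Txnip in 8 of 10 high-glucose libraries, and Txnip exceeded Txn2 in 11 of 12 normal-glucose libraries. Mlx followed at 9.03 ± 1.23 and 7.13 ± 1.76 CPM per kb in high and normal glucose, above the next gene in every library. Next came Arrdc3 at 4.22 ± 1.24 and Arrdc1 at 3.08 ± 0.744 in high glucose, while in normal glucose Arrdc1 at 3.71 ± 0.771 stood above Arrdc3 at 2.91 ± 0.756. Arrdc3 exceeded Arrdc1 in 9 of 10 high-glucose libraries, and Arrdc1 exceeded Arrdc3 in 10 of 12 normal-glucose libraries. Arrdc4 had 2.36 ± 0.976 and 2.12 ± 0.539, Mlxip 1.27 ± 0.222 and 1.49 ± 0.382, and Arrdc2 0.556 ± 0.245 and 0.537 ± 0.231 CPM per kb in high and normal glucose. Mlxipl was last, at 0.0146 and 0.00421 CPM per kb.

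**Figure D4:**
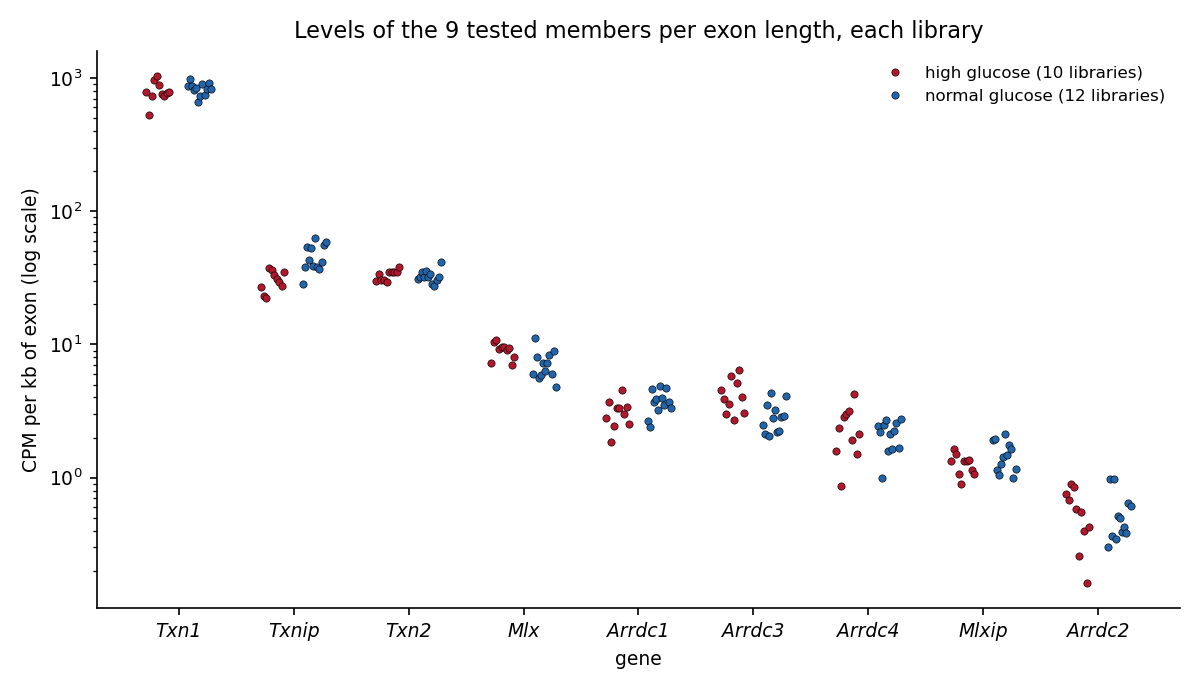
Level in CPM per kb of exon (y axis, log scale) of the 9 tested genes (x axis) in each library, high glucose in red on the left and normal glucose in blue on the right of each gene. Txn1 stands at 530 to 1032 CPM per kb in high glucose, above all others, and Txnip and Txn2 change order between the media.

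Replicates of Txnip varied more than those of most genes at its level. Its biological coefficient of variation was 0.182, against a median of 0.109 among genes of similar abundance, of which 96.6% had a lower value. Arrdc3 stood likewise at 0.202, with 93.4% of similar genes below it. Txn1 (0.109), Txn2 (0.104), Mlx (0.173), Mlxip (0.180), Arrdc1 (0.208), Arrdc2 (0.360) and Arrdc4 (0.244) were nearer to their peers, with 12.2 to 73.1% of similar genes below them.

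How Txnip varied with the other genes from library to library was computed within each medium, as 16 relations on log2 CPM with permutation tests of 100000 resamples, two-sided and adjusted over the 16. The libraries of a medium include treated and control groups, so r is also given on deviations from the group means. The deviations of a group sum to 0 but were permuted freely across groups, so permutation p-values on them are too small. In high glucose (n = 10), Txnip was related to Txn1 with Pearson's r = 0.79 (permutation p = 0.00383, adjusted 0.0344) and Spearman's rho = 0.75 (permutation p = 0.0165, adjusted 0.0682). It was related to Mlxip with r = -0.82 (permutation p = 0.0043, adjusted 0.0344) and rho = -0.78 (permutation p = 0.0105, adjusted 0.0682). Without the 2 libraries farthest from the Txnip median, HGC replicates 2 and 3, r was 0.76 for Txn1 and -0.65 for Mlxip. On deviations from the group means r was 0.42 for Txn1 and -0.58 for Mlxip, and neither passed (adjusted permutation p = 0.473 and 0.233). Leaving out 1 high-glucose library put the adjusted permutation p above 0.05 in 9 of 10 cases for each relation, at 0.0504 to 0.0766. The exceptions were HGC replicate 3 for Txn1 and HG1 replicate 3 for Mlxip.

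In normal glucose (n = 12), Txnip was related to Arrdc3 with r = 0.71 (permutation p = 0.0109, adjusted 0.0562) and rho = 0.69 (permutation p = 0.0171, adjusted 0.0682), and to Txn2 with r = 0.68 (permutation p = 0.0140, adjusted 0.0562) and rho = 0.71 (permutation p = 0.0108, adjusted 0.0682). Both miss 0.05 after adjustment, but both passed on CPM without TMM factors (adjusted permutation p = 0.0299 each) and without NGC replicate 1 or NG2 replicate 1. Arrdc3 also passed without NG1 replicate 1. Leaving out any other single normal-glucose library kept the adjusted permutation p of both relations above 0.05. Without NG3 replicate 3, r was 0.65 for Arrdc3 and 0.64 for Txn2 (adjusted permutation p = 0.112 and 0.118). Without NG2 replicate 1 and NGC replicate 1 the r values for Arrdc3 and Txn2 were 0.82 and 0.80, and on deviations from the group means 0.71 and 0.79. The adjusted permutation p-values on deviations were 0.0932 and 0.0418. They are too small for the reason given above, so no pass is read from the second. In high glucose the same relations were 0.07 for Arrdc3 and 0.08 for Txn2. The difference between the media in r was not tested. Txnip and Arrdc4 had r = 0.61 in high glucose (permutation p = 0.0612, adjusted 0.163; rho = 0.56, permutation p = 0.0965) and -0.12 in normal glucose (permutation p = 0.715; rho = 0.05, permutation p = 0.884).

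**Figure D5:**
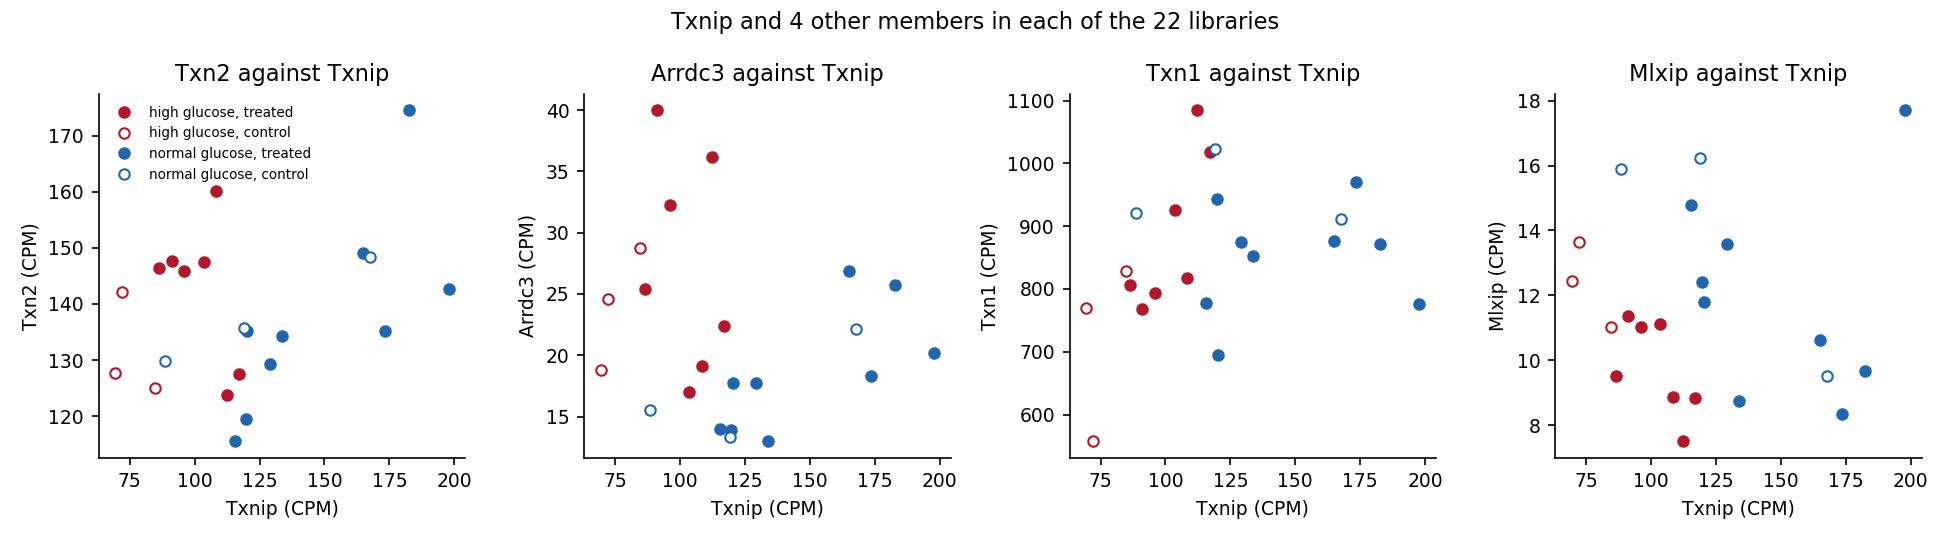
Level in CPM of Txn2, Arrdc3, Txn1 and Mlxip (y axes, not starting at 0) against Txnip (x axis) in the 22 libraries, red for high and blue for normal glucose, filled for treated and open for control. Open red points, the 3 HGC libraries, lie at the lowest Txnip levels (69.5 to 84.7 CPM), and the blue points of Txn2 and Arrdc3 rise with Txnip.

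As a description over all 22 libraries, the 10200 genes with a mean of at least 5 CPM were ranked by Pearson's r of log2 CPM with Txnip. The most alike were Abhd10 (r = 0.87), Trim27 (0.83), Ncaph (0.82), Smim19 (0.81), Kdelr2 (0.81) and ENSMUSG00000118664 (0.80). The least alike were Asap1 (r = -0.87), the insulin receptor substrate Irs2 (-0.87) and the heme oxygenase Hmox1 (-0.84). Of the other genes of the set Arrdc1 ranked 381st (r = 0.54), Txn1 1459th, Txn2 2258th, Arrdc4 4180th, Mlxip 6475th, Arrdc3 6756th and Mlx 9464th (r = -0.49). On deviations from the group means, which remove medium and dose, the most alike were Abhd10 (r = 0.86), Cdk4 (0.82), Ddt (0.82), Fndc4 (0.81), Copz2 (0.81) and Trp53inp2 (0.77), and the least alike 4632427E13Rik (-0.89), Pdxdc1 (-0.84) and Asap1 (-0.82). There Txn2 ranked 94th (r = 0.62), Arrdc3 287th (r = 0.54) and Arrdc4 7084th (r = -0.16). Genes most like Arrdc4 were Tdp2 (r = 0.71), Aasdh (0.68) and Ptgr1 (0.65) on log2 CPM. The libraries differ in depth, and on log2 CPM r also takes in the difference between the media on which Txnip was chosen. These values carry no test.

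Of the other known targets of ChREBP and MondoA, several were higher in high glucose, where Txnip was lower. Of 14 tested of 22 listed, 5 rose and none fell over the 4 levels (edgeR adjusted p under 0.05), with a median log2 difference of 0.10, against -0.01 for all genes, of which 10.1% passed. Bhlhe40, a transcriptional repressor, averaged 40.3 ± 7.52 CPM in high and 20.9 ± 4.92 CPM in normal glucose (n = 10 and 12, log2 0.93 ± 0.11, edgeR adjusted p = 5.34e-08). Hk2, a hexokinase that makes glucose 6-phosphate, averaged 79.2 ± 11.7 CPM in high and 55.6 ± 9.37 CPM in normal glucose (log2 0.50 ± 0.09, edgeR adjusted p = 5.93e-05). Ldha, lactate dehydrogenase A, rose by 0.28 ± 0.06, the fatty acid elongase Elovl6 by 0.41 ± 0.09 and the desaturase Scd1 by 0.26 ± 0.07 on the log2 scale. The list holds genes of fat synthesis and glycolysis that other factors control too. Between HGC and NGC 1 of the 14, Bhlhe40, rose (log2 1.11 ± 0.21, edgeR adjusted p = 9.43e-04), where 2.28% of all genes passed. At label 1, Bhlhe40, Hk2 and Ldha rose, where 1.66% of all genes passed. None of the 14 passed at labels 2 and 3, where 0.76% and 0.919% of all genes did.

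In the network of MYC, MAX and MLX, which share partners and E-box sequences, 1 of 9 tested genes rose and 4 fell over the 4 levels, where 10.1% of all genes passed, and the median log2 difference was -0.36. Mnt, a repressor that pairs with MLX and MAX, rose by 0.47 ± 0.11 (edgeR adjusted p = 0.00229). Mxd4, also a repressor of this network, fell by 0.39 ± 0.08 on the log2 scale (edgeR adjusted p = 4.03e-04), to 85.5 ± 8.63 CPM in high glucose, against 110.7 ± 16.7 CPM in normal glucose. Myc averaged 8.55 ± 3.63 CPM in high and 14.2 ± 3.30 CPM in normal glucose (log2 -0.77 ± 0.21, edgeR adjusted p = 0.0164). Mxd3 and Mxi1 fell by 0.37 ± 0.11 and 0.36 ± 0.11. Over both media, Mxd3 was higher with mogroside V by 0.37 ± 0.12 and Mga lower, at -0.18 ± 0.08, but neither passed (edgeR adjusted p = 0.994 for both). The 5 calls between the media became 3 without NG1 replicate 3, HG2 replicate 1 or HG3 replicate 1, and 2 without HG3 replicate 3.

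In the thioredoxin system, 2 of 27 tested genes rose and 1 fell over the 4 levels, a share near the 10.1% of all genes, with a median of -0.06. Prdx5, a peroxiredoxin, averaged 318.7 ± 19.8 CPM in high and 259.3 ± 18.9 CPM in normal glucose (log2 0.29 ± 0.06, edgeR adjusted p = 2.82e-04). The mitochondrial glutaredoxin Glrx2 rose by 0.35 ± 0.10, and glutathione reductase, Gsr, fell by 0.41 ± 0.10 on the log2 scale. Txnrd1, the cytosolic reductase of Txn1, was at 136.0 ± 9.87 CPM in high and 143.4 ± 23.3 CPM in normal glucose (log2 -0.06 ± 0.07, edgeR adjusted p = 0.678). Of 13 tested genes for glucose entry and hexose phosphate supply, Hk2 alone rose and none fell, with a median of 0.04. Slc2a1, the glucose transporter GLUT1 that TXNIP binds, averaged 40.0 ± 5.33 CPM in high and 34.2 ± 5.45 CPM in normal glucose (log2 0.20 ± 0.09, edgeR adjusted p = 0.175).

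Of 10 tested NEDD4-family ligases and adaptors, the partners of alpha-arrestins, 1 rose and none fell over the 4 levels, a share near the 10.1% of all genes: Wwp2 averaged 103.9 ± 13.5 CPM in high and 89.6 ± 8.39 CPM in normal glucose (log2 0.21 ± 0.07, edgeR adjusted p = 0.0432). Wwp2 did not pass without any 1 of NGC replicate 2, NG1 replicate 3, NG2 replicates 1 and 2, HGC replicates 2 and 3, HG2 replicates 1 and 2 and HG3 replicate 3. The adaptor Ndfip1 was at -0.17 ± 0.06 (edgeR adjusted p = 0.0552). Of 3 tested other arrestins none passed. Arrb1 was at -0.31 ± 0.13 and Arrb2 at -0.21 ± 0.09, with edgeR adjusted p = 0.140 and 0.150, and 2 of the 3 had an unadjusted p under 0.05, as had 22.7% of all genes, while DESeq2 called none. The median log2 difference was 0.01 for the ligases and adaptors and -0.21 for the 3 arrestins.

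Among 15 tested other regulators of Txnip, 1 rose and 1 fell over the 4 levels, where 10.1% of all genes passed, and this share is the background of each list here. Usf2, an E-box factor, averaged 211.8 ± 36.4 CPM in high and 150.1 ± 21.7 CPM in normal glucose (log2 0.49 ± 0.09, edgeR adjusted p = 8.17e-04). Nfe2l2, which encodes NRF2, fell by 0.22 ± 0.06 (edgeR adjusted p = 0.0197). Of 9 tested targets of the glucocorticoid receptor, which also acts on Txnip, Klf9 rose by 0.65 ± 0.07 (edgeR adjusted p = 7.34e-09), while Sgk1 fell by 0.30 ± 0.09 and Fkbp5 by 0.24 ± 0.07. These 3 calls became 1 without NG1 replicate 1 or NG3 replicate 1 and 2 without any 1 of 9 other libraries, and the 2 calls of the other regulators became 1 without HG2 replicate 1 or HG3 replicate 1. Of 12 tested FOXO and growth arrest genes only Irs2 passed: it rose to 91.0 ± 20.9 CPM in high glucose, against 61.1 ± 13.7 CPM in normal glucose (log2 0.54 ± 0.12, edgeR adjusted p = 0.00642). The median log2 difference was -0.10 for the other regulators, -0.18 for the glucocorticoid targets and 0.03 for the FOXO list. For treated against control cells over both media, none of the genes in these 9 lists passed by edgeR. There an unadjusted p under 0.05 was reached by 2 of 9 MYC, MAX and MLX network genes and 2 of 9 glucocorticoid targets. It was also reached by 1 of 13 genes of the glucose entry list, 1 of 15 other regulators and 1 of 12 FOXO list genes. Of all genes 4.74% reached it, and DESeq2 called 1 gene of all tested.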

How the data were processed

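RNA of 24 samples was sequenced as polyA libraries. The submitters' processing notes name STAR 2.7.5c, HTSeq 1.99.2, FastQC 0.11.9 and DESeq2 3.16 and the build GRCm39; their roles and the strand setting are not given in the sources used here. The deposited files hold raw counts per gene, one file per sample, which were not normalized by the authors. The 5 summary lines of each file were left out of library sizes and tests; reads on no gene were 14.4 to 20.62% and reads not unique 16.54 to 18.86% of the total. Symbols were matched for 51948 of 56941 IDs. Samples were grouped by their titles. HG2 replicate 3 and HG3 replicate 2 were identical, and 22 libraries were kept.

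In R 4.3.3, edgeR 4.0.16 filtered low counts (13281 genes kept), applied TMM factors (0.965 to 1.07) and fitted all 8 groups in 1 quasi-likelihood model for 19 comparisons, with Benjamini-Hochberg adjustment over all tested genes and a threshold of 0.05. The fit was tested on simulated data. Log2 CPM for relations used a prior count of 2. Precision is limited by depth, which was 3396249 to 7773074 gene counts. Alternatives were DESeq2 1.42.0, other size factors, no filter, other sets of samples and each library left out. Sample numbers did not pair the libraries (median correlation of same-numbered deviations 0.0107).

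The genes, lists and tests were chosen with earlier results of these data known. Besides all 10 genes, the text names up to 3 tested genes of each list with the lowest p between the media and up to 2 with the lowest p between treated and control cells, and the genes most and least like Txnip and most like Arrdc4, of which those by group deviations are not reported here; other names, such as Txnrd1 and Slc2a1, were added after their values were seen.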

Additional observations from a re-analysis of the deposited data

How the results depend on the processing

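The counts between the media belong to the contrast on which the genes were chosen and support nothing. Over the 4 levels there were 2 or 3 calls under the 31 alternatives, 3 only without NG3 replicate 2. Between HGC and NGC, no call became 2 without the low-count filter and with DESeq2, and 1 with all 24 files or with the identical file kept in HG2 or in HG3; leaving out 1 library gave 0 to 1. At label 1 the medium contrast had 1 call with only its own groups in the fit, and 1 without NG3 replicate 3 and HGC replicate 2 together. At label 2, 1 call became 2 without the filter, 0 with a replicate block and 0 with the identical file kept in HG3, and 0 to 1 when 1 library was left out. At label 3 it had 1 without the filter. Over the 3 labels, 2 calls became 1 without NG3 replicate 3 and HGC replicate 2, and 0 to 3 when 1 library was left out (3, with Mlx, without NG3 replicate 2). HG1 against HGC had 2 calls without the filter (Txn1 and Txnip) and 1 with DESeq2, and the difference at label 1 had 1 with either. Of all genes, 37 rose and 13 fell in HG1 without the filter, and DESeq2 called 12 of 3367. In the difference these were 28 and 7, and 29 of 2848. The replicate block changed no other call among the 9 genes.

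Leaving out 1 library gave -0.93 to -0.46 for Txnip and -0.61 to 0.065 for Arrdc4 between HGC and NGC, and Arrdc4 was -0.60 without NG3 replicate 3 and HGC replicate 2. The relation of Txnip with Mlxip in high glucose was -0.75 without those 2 libraries, -0.58 on group deviations and -0.87 to -0.75 when 1 library was left out. That with Txn1 was 0.74, 0.42 and 0.74 to 0.88. In normal glucose the relations of Txnip with Arrdc3 and Txn2 passed without TMM factors, and were weaker without NG3 replicate 3, at 0.65 and 0.64. The cause of these shifts was not tested, beyond the smaller number of libraries. Depth limits Mlxipl and Arrdc2, and n = 2 limits HG2 and HG3.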
